A study of Arabidopsis thaliana with 27 samples.

Results

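Late embryogenesis abundant (LEA) genes were followed in dormant (D) seeds of the Arabidopsis accession Cvi. The group was defined by a list of 51 gene identifiers, spread over 9 protein families, and not by any measured value. The array table held 21313 genes, and 48 of the 51 LEA genes were among them. RAB28 (AT1G03120), AT5G53260 and AT5G53270, which all belong to the seed maturation protein (SMP) family, were not measured. Names are symbols or synonyms of the RefSeq table for TAIR10.1 (EM6 is GEA6 and AtLEA3 is LEA3 there, and HIRD11 is a synonym), and other genes keep their identifier, as does AT2G21490, whose symbol there is only LEA. LEA14 is AT1G01470, while LEA26 (AT2G44060) and LEA27 (AT2G46140) carry their numbers in the published family list.

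LEA proteins are mostly small and very hydrophilic, and they accumulate late in seed maturation, when the embryo acquires desiccation tolerance. In the water-poor cell they are thought to protect enzymes and membranes, and many of their genes are induced by abscisic acid (ABA) or by drought and cold. Their transcripts are stored in the dry seed, and loss of LEA transcripts is a familiar part of the passage to seedling growth, which in dormant seeds is blocked.

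The series measured D seeds on Affymetrix ATH1 gene chips, with 27 arrays in 9 groups of 3 replicates. Seeds imbibed in water for 3, 7, 12 or 24 h (hours after sowing, HAS) were dissected, and 2 pieces were kept: the endosperm at the micropylar and chalazal ends (MCE) and the radicle with the hypocotyl (RAD). Dry seeds were taken whole. The comparisons ask how transcripts change over time in each compartment, how the compartments differ, and how imbibed tissue differs from the dry seed. The labels give plants grown in 3 replicates on rockwool and do not tie an array to a plant, so the p-values measure the spread between these arrays. The RAD samples were extracted with a commercial kit, whereas a hot borate procedure followed by a clean-up column served for MCE and dry seed samples. Isolation method and compartment therefore cannot be told apart in any comparison of the RAD with the MCE or with dry seeds. A comparison with dry seeds also sets 1 dissected compartment against a whole seed, and fewer cells of a type cannot be told apart from less RNA per cell.

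Values are log2 expression values as normalized by the authors, and all differences are log2 differences from limma with Benjamini-Hochberg adjustment over all 21313 genes, called at an adjusted p under 0.05. A gene counts as expressed where its mean of 3 arrays is above 5. Each probe set has its own scale, so levels of different genes are not compared. Replicate arrays correlated over all genes at 0.987 to 0.996. EPR1, an extensin-like gene of the endosperm, averaged 13.65 to 13.79 in the MCE and 6.44 to 7.27 in the RAD. Of the list of endosperm markers, 6 of 7 were measured, and their summed linear signal was 12042 to 15828 in the MCE, 198 to 333 in the RAD and 7442 to 7606 in dry seeds. EPR1 made up most of the MCE sum. Over the 4 times, 2, 3, 3 and 3 of the 6 genes were called higher in the MCE and 0 lower. Among all genes, 16.4%, 20.1%, 20.8% and 18.9% were called higher in the MCE and 16.7%, 20.5%, 20.9% and 20.5% lower. ALE1, SUC5 and EXPA2 of this list were below 5 in all 9 groups. The embryo axis list (11 of 12 measured) did not separate the compartments by its sum, at 1117 to 1798 in the MCE and 1064 to 1508 in the RAD with 1, 3, 2 and 2 of its 11 genes higher and 5, 4, 4 and 7 lower in the MCE over the 4 times. The 8 seed storage protein genes were expressed in all groups, with a sum of 64155 to 78312 in the MCE, 78776 to 103389 in the RAD and 101410 to 102748 in dry seeds. The part of these cell and storage markers in the LEA results was not tested.

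LEA transcripts fell into a large set that stayed high in imbibed dormant seeds and a small set that was hardly detected. Of the 48 genes, 32 were expressed in all 9 groups, and 24 of these had means above 10 in every group. A further 4 genes, AtLEA3, LEA26, ERD14 and HIRD11, were expressed in some groups only, and 12 in none. All 3 LEA_1 genes, both LEA_5 genes (EM1 and EM6) and both AtM genes (M17 and M10) were expressed throughout, as were 12 of the 18 LEA_4 genes and 5 of the 10 dehydrins. Among the 32 genes expressed in all groups, the highest mean lay in dry seeds for 15, in an MCE group for 10 and in a RAD group for 7. The difference of each expressed gene from dry seeds is shown in the heat map of LEA genes by family.

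**Figure D1:**
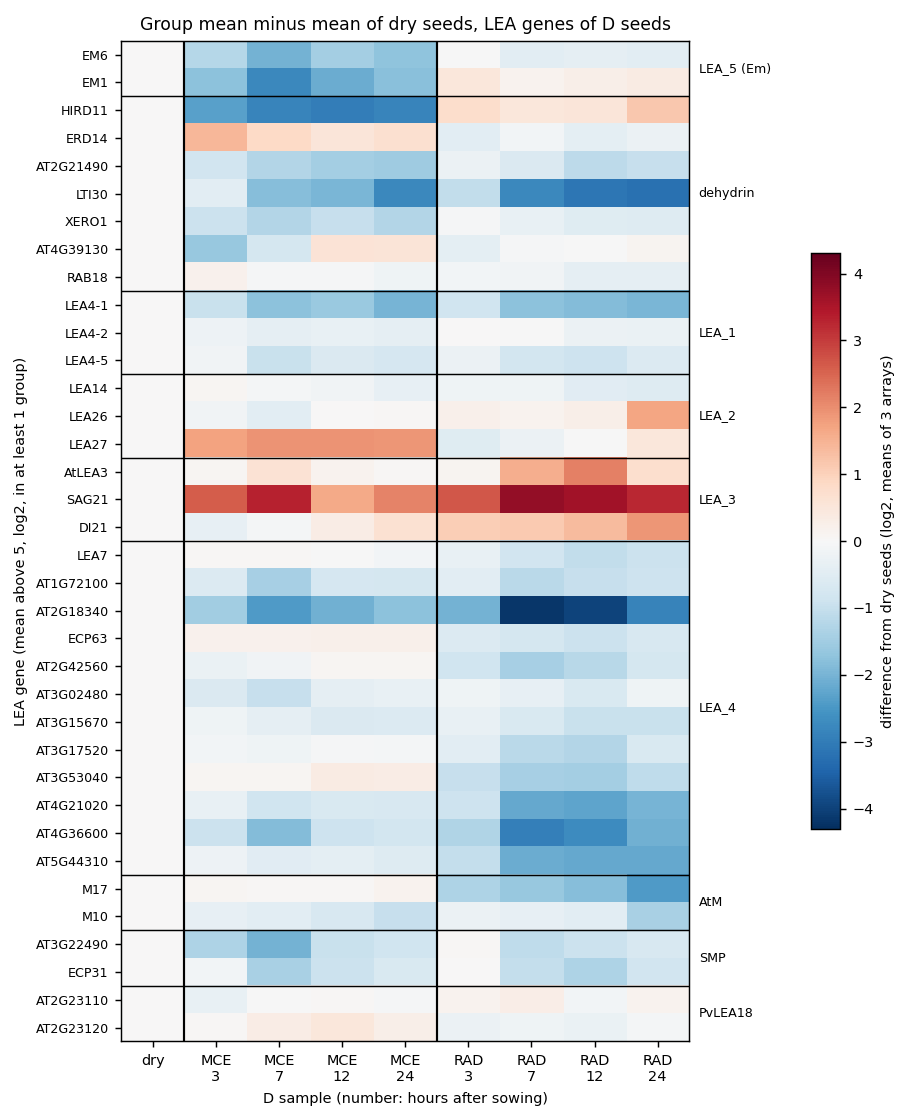
Mean log2 value of each group minus the mean of dry seeds (colour, blue lower and red higher) for the 36 LEA genes expressed in at least 1 group, ordered by family, with columns for dry seeds, then the MCE, then the RAD, in order of time. EM1 and EM6 are lower in the MCE columns than in those of the RAD, while M17, AT5G44310 and AT3G53040 are lower in the RAD columns.

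RAB18, a dehydrin known as an ABA-responsive gene, lay near the upper end of the measured range in every group. In the MCE it was at 14.30, 14.38 and 14.44 at 3 HAS, 13.94, 14.20 and 14.23 at 7 HAS, 14.01, 14.12 and 14.23 at 12 HAS, and 13.96, 13.93 and 14.09 at 24 HAS. In the RAD it was at 14.14, 14.05 and 14.06 at 3 HAS, 14.12, 14.07 and 13.96 at 7 HAS, 13.93, 13.58 and 13.85 at 12 HAS, and 13.90, 13.75 and 13.80 at 24 HAS, and dry seeds were at 14.21, 14.18 and 14.17. The highest value of any gene on an array lay between 13.98 and 14.44, and whether saturation limits the differences of RAB18 was not tested. Its 24 HAS values lay below its 3 HAS values in both compartments, with a fall of 0.38 ± 0.11 (SE, adjusted p = 0.00633) in the MCE. The fall of 0.27 in the RAD (adjusted p = 0.0494) stayed past the threshold in only 6 of the 27 fits that each left out 1 array, the adjusted p of the other 21 lying between 0.0506 and 0.15.

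Between 21 and 29 of the 48 LEA genes differed between the compartments at each time. At 3 HAS, 11 of the 48 genes were higher in the MCE and 10 were lower, when 16.4% and 16.7% of all genes tested were called higher and lower. At 7 HAS, 15 were higher and 14 lower, against backgrounds of 20.1% and 20.5%. At 12 HAS, 18 were higher and 8 lower (backgrounds 20.8% and 20.9%), which became 15 and 12 when each array was centred on its own median. That centring moved the share of all genes called in either direction from 41.7% to 48.6%. At 24 HAS, 15 were higher and 9 lower (backgrounds 18.9% and 20.5%). The share of LEA genes called higher was thus 22.9%, 31.2%, 37.5% and 31.2% at 3, 7, 12 and 24 HAS, and the share called lower 20.8%, 29.2%, 16.7% and 18.8%. The median difference of the 48 genes was 0.00, -0.11, 0.25 and -0.01, beside -0.03, -0.06, -0.08 and -0.04 over all genes. In all, 9 genes were higher in the MCE at all 4 times, 6 were lower at all 4 times, and 13 were called at no time. The shares of all genes with these patterns were not counted. The MCE to RAD differences of the expressed genes are shown in the plot of differences at 4 times.

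**Figure D2:**
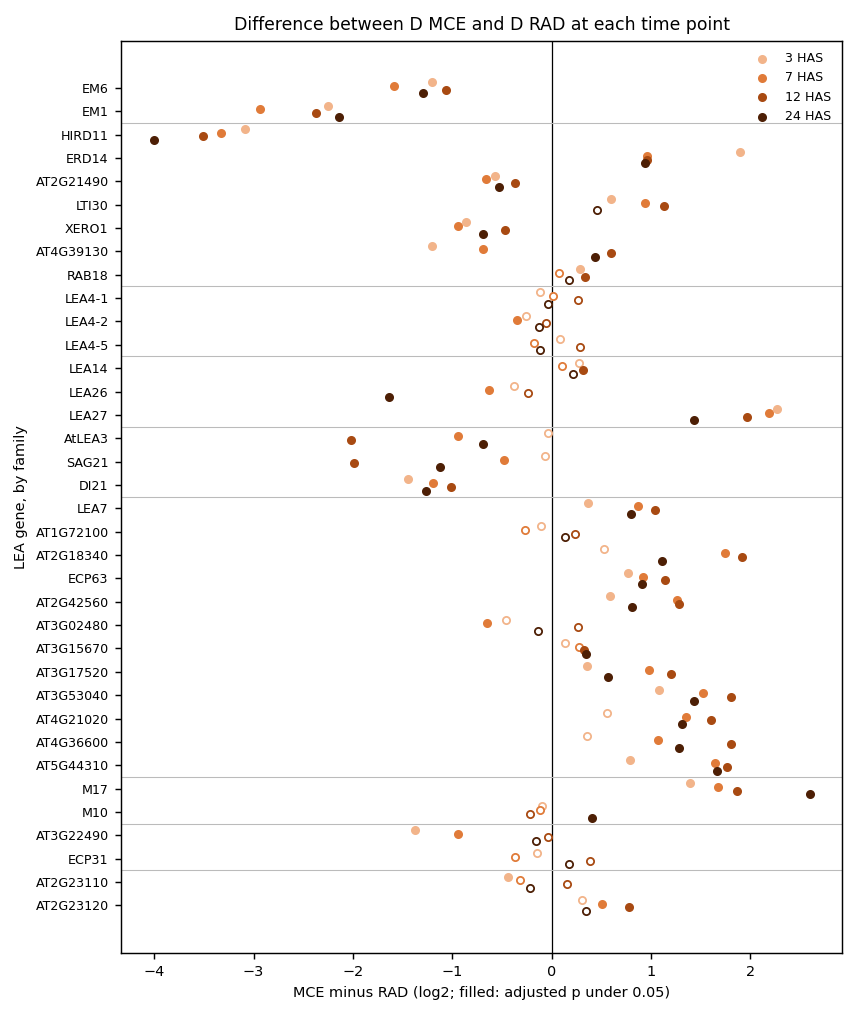
Difference between the MCE and the RAD (log2, MCE minus RAD) of the expressed LEA genes at 3, 7, 12 and 24 HAS, with filled points for an adjusted p under 0.05. HIRD11 lies furthest to the lower side, at -3.09 to -4.00, and LEA27 and M17 reach 2.27 and 2.60 on the higher side.

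The Em genes EM1 and EM6, of the LEA_5 family, encode the Em proteins of the mature embryo and are textbook targets of the ABA factor ABI5. Both were lower in the MCE at every time. In the MCE, EM1 (probe set AT3G51810_at) was at 11.45, 11.20 and 11.37 at 3 HAS, 10.01, 10.49 and 10.47 at 7 HAS, 10.52, 10.93 and 11.47 at 12 HAS, and 11.31, 11.23 and 11.42 at 24 HAS. RAD arrays were at 13.63, 13.49 and 13.64 at 3 HAS, 13.39, 13.16 and 13.22 at 7 HAS, 13.52, 13.19 and 13.32 at 12 HAS, and 13.45, 13.45 and 13.50 at 24 HAS. All 12 MCE arrays lay below all 12 RAD arrays, and dry seeds, at 13.10, 13.12 and 13.10, lay just below the RAD. The difference at 3, 7, 12 and 24 HAS was -2.25, -2.93, -2.37 and -2.14, each ± 0.16 (SE, adjusted p = 3.54e-11 at 24 HAS).

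EM6 (probe set AT2G40170_at) ran in the same direction with a smaller gap and a wider spread. In the MCE it was at 12.51, 12.44 and 12.76 at 3 HAS, 11.06, 11.89 and 12.36 at 7 HAS, 11.90, 12.35 and 12.74 at 12 HAS, and 11.80, 11.87 and 12.48 at 24 HAS. In the RAD it was at 13.88, 13.71 and 13.73 at 3 HAS, 13.65, 13.15 and 13.26 at 7 HAS, 13.73, 13.15 and 13.30 at 12 HAS, and 13.28, 13.45 and 13.31 at 24 HAS, and dry seeds were at 13.77, 13.84 and 13.76. Again no MCE array reached a RAD array, and MCE replicate 1 at 7 HAS was the lowest of all. The difference was -1.21, -1.58, -1.06 and -1.29 at 3, 7, 12 and 24 HAS, each ± 0.24 (SE, adjusted p = 6.76e-05 at 24 HAS). Against dry seeds, the MCE at 3 HAS was lower by 1.77 ± 0.16 for EM1 (adjusted p = 2.36e-09) and by 1.22 ± 0.24 for EM6 (adjusted p = 0.00021). The RAD at 3 HAS differed from dry seeds by 0.48 for EM1 (adjusted p = 0.0236) and by -0.02 for EM6 (adjusted p = 0.974). The EM1 call in the RAD was lost when dry replicate 1, 2 or 3 or RAD 3 HAS replicate 1 or 3 was left out, with adjusted p between 0.0513 and 0.0711.

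After 3 HAS neither Em gene showed a net difference by 24 HAS that passed the test. For EM1 the difference between 24 and 3 HAS was -0.02 in the MCE (adjusted p = 0.958) and -0.12 in the RAD (adjusted p = 0.612). For EM6 it was -0.52 (adjusted p = 0.0943) and -0.43 (adjusted p = 0.165). The EM6 fall in the MCE did pass the test without MCE 24 HAS replicate 3 (-0.735) or without MCE 7 HAS replicate 1 (-0.52). Between these times EM1 fell in the MCE by 1.01 at 7 against 3 HAS (adjusted p = 2.77e-05) and rose by 0.65 at 12 against 7 HAS (adjusted p = 0.00841). The rise was lost without MCE 7 HAS replicate 1 or MCE 12 HAS replicate 3 (adjusted p 0.0838 to 0.111). EM6 fell by 0.80 at 7 against 3 HAS (adjusted p = 0.0123), which was lost without MCE 7 HAS replicate 1 or MCE 3 HAS replicate 3 (adjusted p 0.0569 to 0.156).

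HIRD11 (probe set AT1G54410_at), a small histidine-rich dehydrin that binds metal ions, showed the widest gap between the compartments of any LEA gene. In the MCE it was at 5.25, 5.77 and 5.39 at 3 HAS, 4.85, 5.24 and 4.79 at 7 HAS, 4.70, 4.82 and 4.90 at 12 HAS, and 5.31, 4.70 and 4.88 at 24 HAS, close to the threshold of expression. On the RAD arrays the values were 8.63, 8.53 and 8.51 at 3 HAS, 8.36, 8.15 and 8.35 at 7 HAS, 8.19, 8.44 and 8.32 at 12 HAS, and 8.62, 8.79 and 9.48 at 24 HAS. Dry seeds, at 7.89, 7.84 and 7.66, lay between the compartments, with no overlap on either side. The difference at 24 HAS was -4.00 ± 0.18 (SE, adjusted p = 1.2e-15). Against dry seeds it was lower by 2.32 in the MCE at 3 HAS (adjusted p = 1.14e-10) and higher by 0.76 in the RAD at 3 HAS (adjusted p = 0.00158).

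The dehydrins XERO1 and AT2G21490 and the LEA_3 gene DI21 were lower in the MCE at all 4 times. XERO1 was at 11.83, 11.72 and 11.86 at 3 HAS and 11.34, 11.45 and 11.60 at 24 HAS in the MCE, against 12.66, 12.68 and 12.65 at 3 HAS and 12.28, 12.104 and 12.08 at 24 HAS in the RAD. At 7 and 12 HAS it was at 10.98, 11.59 and 11.80 and at 11.58, 11.67 and 11.92 in the MCE, against 12.52, 12.34 and 12.34 and 12.25, 12.15 and 12.18 in the RAD, and dry seeds were at 12.80, 12.74 and 12.60. Its difference was -0.86 at 3 HAS and -0.69 at 24 HAS, each ± 0.14 (SE, adjusted p = 3.01e-05 and 0.000291). AT2G21490 was at 12.46, 12.29 and 12.35 at 3 HAS and 11.68, 11.60 and 11.72 at 24 HAS in the MCE, against 12.94, 12.92 and 12.94 at 3 HAS and 12.11, 12.18 and 12.3001 at 24 HAS in the RAD. At 7 and 12 HAS it was at 11.75, 11.99 and 12.04 and at 11.53, 11.81 and 11.82 in the MCE, against 12.72, 12.48 and 12.56 and 12.14, 12.11 and 12.00 in the RAD, and dry seeds were at 13.18, 13.21 and 13.20. The MCE and RAD arrays of each of these genes did not overlap at any of the 4 times. The 12 HAS calls of XERO1 and AT2G21490 were lost without MCE 12 HAS replicate 1 (adjusted p = 0.0539 and 0.0587). DI21, a drought-induced LEA_3 gene, differed by -1.44, -1.20, -1.01 and -1.26 at 3, 7, 12 and 24 HAS, each ± 0.12 (SE, adjusted p = 1.55e-09 at 24 HAS).

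**Figure D3:**
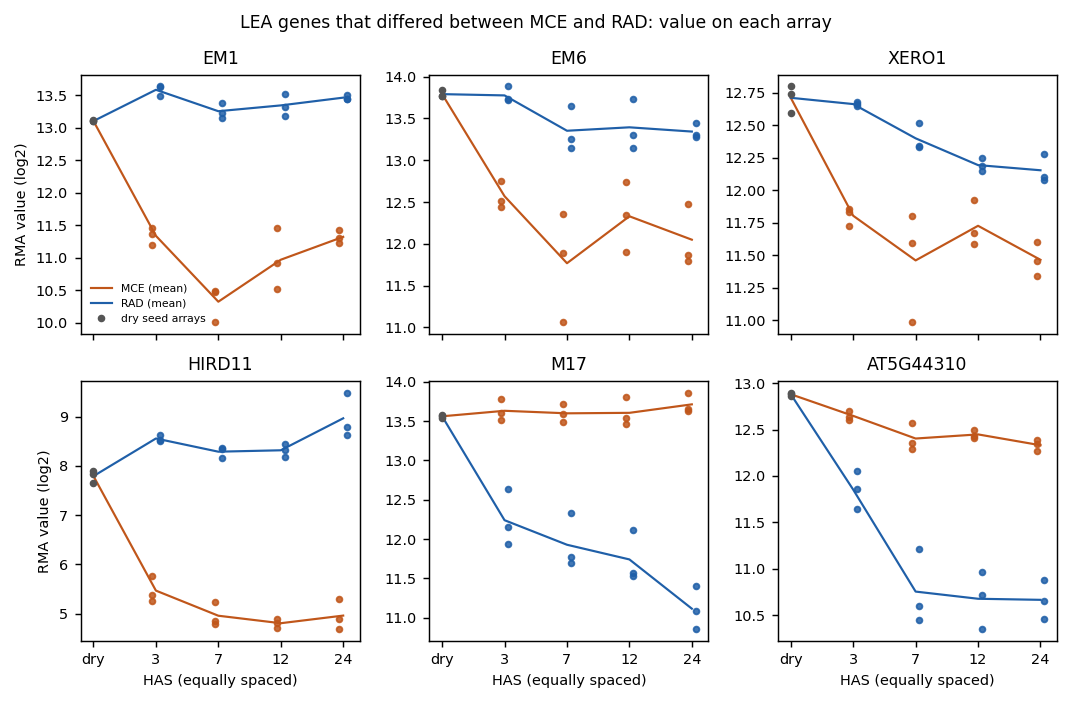
Log2 value of each array for EM1, EM6, XERO1, HIRD11, M17 and AT5G44310 over time, with dry seeds (grey), the MCE (orange) and the RAD (blue), points for single arrays and lines through the means of 3. EM1, EM6, XERO1 and HIRD11 are lower in the MCE at each time, and M17 and AT5G44310 are higher in the MCE.

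The LEA_4 family, whose proteins fold into helices on drying, went the other way. Of its 18 genes, 6, 10, 10 and 10 were higher in the MCE over the 4 times, and 0, 2, 0 and 0 were lower, beside 16.4%, 20.1%, 20.8% and 18.9% of all genes called higher and 16.7%, 20.5%, 20.9% and 20.5% called lower. Its median difference was 0.25, 0.58, 0.69 and 0.46, whereas that of the 2 LEA_5 genes was -1.73, -2.26, -1.72 and -1.72. At 24 HAS the LEA_4 genes higher in the MCE ranged from AT5G44310, at 1.66, to AT3G15670, at 0.35. The call of AT3G15670 was lost when any 1 of the 3 MCE arrays at 24 HAS, or RAD 24 HAS replicate 2 or 3, was left out (adjusted p 0.0557 to 0.155). Its 12 HAS call was lost in 21 of the 27 fits that each left out 1 array (adjusted p 0.051 to 0.382). At 7 HAS, UNE15, called higher, lost its call in 19 of them (adjusted p 0.05 to 0.154). The 2 lower calls, AT2G03740 and AT3G02480, were both lost without MCE 7 HAS replicate 1. UNE15 and AT2G03740 were below 5 in all groups.

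AT5G44310 was at 12.61, 12.64 and 12.70 at 3 HAS, 12.35, 12.29 and 12.57 at 7 HAS, 12.43, 12.50 and 12.41 at 12 HAS, and 12.34, 12.27 and 12.38 at 24 HAS in the MCE. In the RAD it was at 12.05, 11.86 and 11.65 at 3 HAS, 11.22, 10.45 and 10.60 at 7 HAS, 10.72, 10.96 and 10.36 at 12 HAS, and 10.66, 10.46 and 10.88 at 24 HAS, and dry seeds were at 12.86, 12.89 and 12.89. The RAD arrays lay below all MCE arrays, and the gap at 24 HAS was 1.66 ± 0.16 (SE, adjusted p = 3.64e-09).

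AT3G53040, another LEA_4 gene, was lower in the RAD than in dry seeds at 3 and 24 HAS. In the MCE it was at 13.16, 12.95 and 12.96 at 3 HAS and 13.24, 13.41 and 13.18 at 24 HAS, whereas the RAD was at 12.33, 11.88 and 11.61 at 3 HAS and 11.97, 11.55 and 12.02 at 24 HAS. Dry seeds were at 12.93, 12.96 and 12.94. The RAD was lower than dry seeds on all 3 arrays at both times, while the MCE difference from dry seeds did not pass the test (0.08 at 3 HAS, adjusted p = 0.771, and 0.33 at 24 HAS, adjusted p = 0.0945). The MCE exceeded the RAD by 1.08, 1.52, 1.81 and 1.43 at 3, 7, 12 and 24 HAS. ECP63, AT2G42560, AT3G17520 and LEA7, all LEA_4 genes, were also higher in the MCE at all 4 times, by 0.36 to 1.28. At 3 HAS, LEA7 lost its call without MCE 3 HAS replicate 3 or RAD 3 HAS replicate 2 (adjusted p 0.0527 to 0.0613), and AT3G17520 without replicate 2 or 3 of either compartment (adjusted p 0.0557 to 0.107).

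M17, of the small AtM family, lay close to the dry seeds in the MCE, at 13.60, 13.51 and 13.78 at 3 HAS, 13.49, 13.59 and 13.72 at 7 HAS, 13.47, 13.54 and 13.80 at 12 HAS, and 13.63, 13.65 and 13.86 at 24 HAS. The RAD values were 12.63, 11.94 and 12.15 at 3 HAS, 12.33, 11.69 and 11.77 at 7 HAS, 12.11, 11.54 and 11.57 at 12 HAS, and 11.09, 10.86 and 11.40 at 24 HAS. Dry seeds were at 13.57, 13.54 and 13.57, above every RAD array and within the range of the MCE. The MCE exceeded the RAD by 1.39 at 3 HAS and by 2.60 at 24 HAS, each ± 0.18 (SE, adjusted p = 8.07e-12 at 24 HAS).

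LEA27, of the LEA_2 family of atypical, less hydrophilic LEA proteins, was above dry seeds in the MCE throughout and below them in the RAD at 3 HAS. In the MCE LEA27 was at 9.82, 9.70 and 9.80 at 3 HAS, 9.64, 10.09 and 10.16 at 7 HAS, 9.85, 10.07 and 10.01 at 12 HAS, and 9.71, 10.01 and 10.12 at 24 HAS. In the RAD it was at 7.41, 7.52 and 7.58 at 3 HAS, 7.74, 7.88 and 7.70 at 7 HAS, 7.99, 7.99 and 8.04 at 12 HAS, and 8.39, 8.62 and 8.55 at 24 HAS, and dry seeds were at 8.07, 8.07 and 7.97. Every MCE array was above the dry seeds, and every RAD array at 3 HAS was below them. At 3 HAS the difference from dry seeds was 1.74 ± 0.12 in the MCE (SE, adjusted p = 2.48e-11) and -0.53 ± 0.12 in the RAD (SE, adjusted p = 0.00143), and the MCE exceeded the RAD by 2.27 at 3 HAS and by 1.43 at 24 HAS (adjusted p = 5.07e-10).

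ERD14, a dehydrin known from dehydration and cold responses, was expressed in the MCE at 3 HAS and below 5 on average elsewhere. It was at 5.33, 5.52 and 4.996 in the MCE at 3 HAS, against 3.41, 3.42 and 3.33 in the RAD at 3 HAS and 3.89, 3.83 and 3.83 in dry seeds. The MCE arrays lay above both, by 1.89 over the RAD and by 1.43 over dry seeds (± 0.23 SE, adjusted p = 2.13e-05 for the comparison with dry seeds). At 24 HAS the MCE was at 4.11, 4.49 and 5.02. The MCE arrays at 7 and 12 HAS lay between 4.06 and 4.94, and the RAD arrays at 7, 12 and 24 HAS between 3.28 and 4.38. The fall of 0.74 from the 3 HAS level (adjusted p = 0.0134) was lost without MCE 24 HAS replicate 1 or MCE 3 HAS replicate 2 (adjusted p 0.0717 to 0.11).

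Against dry seeds, more LEA genes were lower than higher already at 3 HAS. In the MCE, 3 were higher and 15 lower, against 15.2% and 14.9% of all genes, and in the RAD 5 were higher and 15 lower, against 15.6% in each direction. By 24 HAS the MCE had 6 higher and 23 lower (backgrounds 23% and 23.2%) and the RAD 6 higher and 25 lower (backgrounds 24.9% and 23.6%). The share of LEA genes lower than in dry seeds was 31.2% in each compartment at 3 HAS, and 47.9% in the MCE and 52.1% in the RAD at 24 HAS. The median LEA difference from dry seeds at 3 HAS was -0.20 for the MCE and -0.24 for the RAD, beside -0.01 and 0.01 over all genes, and at 24 HAS -0.30 and -0.40, beside -0.06 and -0.02. Centring each array on its median made the MCE count at 24 HAS 3 higher and 33 lower, with a shift of -0.28 in the median of all genes. Of all genes, 69.5% were then called in either direction, beside 46.2% without centring. These comparisons share the 3 dry arrays.

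The counts relative to dry seeds varied by family. In the RAD at 24 HAS, 14 of 18 LEA_4 genes were lower and none was higher, with a median of -0.71, against 9 of 18 lower in the MCE at 24 HAS. Among these, AT2G03740, AT4G13230 and UNE15 were below 5 in all groups. Both AtM genes were lower in the RAD at 24 HAS (median -1.92), whereas both LEA_5 genes were lower in the MCE at 24 HAS (median -1.76). LEA_3 had the most genes higher in the RAD at 24 HAS, 3 of 4. Of these 3, AtLEA3 was below 5 on average in both groups compared, and its call was lost without RAD 24 HAS replicate 3 (adjusted p = 0.0523).

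SAG21 (probe set AT4G02380_at), a LEA_3 gene known from senescence and oxidative stress, had the largest gain over dry seeds of any LEA gene at 3 HAS in both compartments. It was at 6.90, 6.90 and 6.68 in dry seeds, and in the MCE at 9.26, 9.39 and 9.65 at 3 HAS, 10.28, 9.99 and 10.13 at 7 HAS, 8.75, 8.38 and 8.25 at 12 HAS, and 8.54, 8.94 and 9.34 at 24 HAS. The RAD had 9.20, 9.56 and 9.75 at 3 HAS, 10.43, 10.69 and 10.70 at 7 HAS, 10.48, 10.30 and 10.58 at 12 HAS, and 9.94, 10.13 and 10.12 at 24 HAS. The compartments overlapped at 3 HAS, and at 12 and 24 HAS every MCE array was below every RAD array. At 3 HAS it exceeded dry seeds by 2.61 in the MCE and by 2.68 in the RAD, each ± 0.17 (SE, adjusted p = 5.04e-12 and 4.1e-12). In the MCE it fell by 1.67 at 12 against 7 HAS (adjusted p = 6.41e-07), and at 12 HAS the MCE was 1.99 below the RAD.

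Among the other genes that differed from dry seeds at 3 HAS, DI21 was higher in the RAD, at 11.05, 10.92 and 10.94, against 9.997, 9.87 and 9.82 in dry seeds (1.07 ± 0.12 SE, adjusted p = 6.54e-08). In the MCE at 3 HAS DI21 was at 9.53, 9.44 and 9.61, and its call there (-0.37) was lost without dry replicate 1 or MCE 3 HAS replicate 2 (adjusted p 0.0725 to 0.079). AT4G38410, a dehydrin below the threshold of expression, was at 4.04, 4.18 and 4.43 in the RAD at 3 HAS and at 3.41, 3.22 and 3.26 in dry seeds. The arrays of this gene did not overlap (0.92, adjusted p = 6.9e-05), although all 6 values are low. Its other 21 arrays lay between 2.82 and 3.93.

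AT2G18340 and AT4G36600, both LEA_4 genes, dropped early in the RAD and in the MCE. In each compartment both were called lower at 3 HAS than in dry seeds, and lower again at 7 against 3 HAS. The MCE calls at 7 against 3 HAS were lost without MCE 7 HAS replicate 1, that of AT2G18340 also without MCE 3 HAS replicate 2 (adjusted p 0.0618 to 0.0917). At 3 HAS neither gene differed between the compartments past the test (MCE minus RAD 0.53 and 0.35). AT2G18340 was at 10.15, 8.42 and 9.39 at 3 HAS, 7.55, 7.05 and 6.88 at 7 HAS, 7.69, 7.25 and 7.198 at 12 HAS, and 8.89, 8.03 and 8.50 at 24 HAS in the RAD, and dry seeds were at 11.22, 11.43 and 11.42. Its MCE arrays lay between 8.57 and 10.003. The RAD was lower than dry seeds by 2.04 ± 0.29 at 3 HAS (SE, adjusted p = 4.21e-06), although its 3 arrays spread over more than 1 log2 unit and the methods' t-test with Benjamini-Hochberg adjustment did not call it (adjusted p = 0.0692). It fell by 2.16 at 7 against 3 HAS (adjusted p = 2.57e-06) and rose by 1.09 at 24 against 12 HAS (adjusted p = 0.0157). This last call was lost without RAD 12 HAS replicate 2 or 3, or RAD 24 HAS replicate 1 or 3 (adjusted p 0.0558 to 0.0997).

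AT4G36600 was at 10.56, 9.46 and 9.86 at 3 HAS, 8.87, 8.32 and 7.74 at 7 HAS, 8.97, 8.30 and 8.38 at 12 HAS, and 9.25, 9.08 and 9.16 at 24 HAS in the RAD, with dry seeds at 11.20, 11.41 and 11.12. In the MCE the same gene was at 10.30, 10.61 and 10.03 at 3 HAS and 10.31, 10.47 and 10.54 at 24 HAS, and between 8.90 and 10.58 at 7 and 12 HAS. The RAD lay below the MCE on all arrays at 24 HAS, and was lower than dry seeds by 1.28 ± 0.26 at 3 HAS (SE, adjusted p = 0.000306), a call that the methods' t-test also lost (adjusted p = 0.0769).

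From 3 to 24 HAS, losses again outnumbered gains. In the MCE 3 genes rose and 12 fell, where 18.8% of all genes rose and 16.8% fell, and in the RAD 6 rose and 19 fell, where 20.3% rose and 17.9% fell. Of the LEA genes, 25% fell in the MCE and 39.6% in the RAD. Their median change was -0.16 and -0.17, beside -0.05 and -0.04 over all genes. Centring each array on its median shifted the median of all genes by -0.21 for the MCE and -0.18 for the RAD. It gave 2 rises and 26 falls in the MCE and 4 rises and 26 falls in the RAD. With centring, 52.9% and 49.8% of all genes were called in either direction, beside 35.6% and 38.2% without it. Dehydrins made up the largest part of the MCE changes, with 2 rises and 5 falls among 10 genes. Of these, COR47, which rose, and ERD14 and HIRD11, which fell, had MCE means below 5 at 24 HAS. Each of these calls was lost in some fits that left out 1 array. That of HIRD11 was lost without MCE 24 HAS replicate 2 or 3, or MCE 3 HAS replicate 2 (adjusted p 0.085 to 0.18). In the RAD, 7 of 18 LEA_4 genes and both AtM genes fell, and 3 of 4 LEA_3 genes rose. The difference in change between the compartments passed the test for 8 genes, 4 in each direction, where 5.58% and 6.1% of all genes were called.

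**Figure D4:**
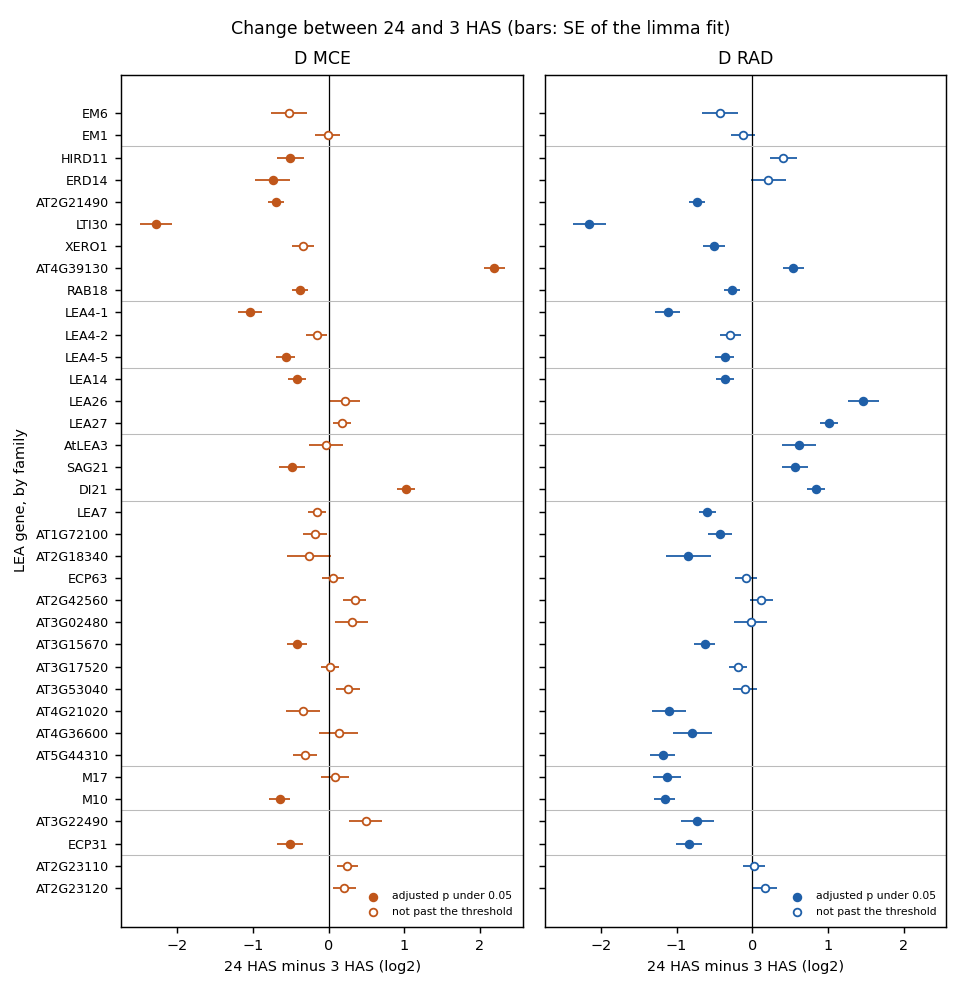
Change of the expressed LEA genes from 3 to 24 HAS (log2, 24 minus 3 HAS) in the MCE (left) and the RAD (right), with bars for the standard error and filled points for an adjusted p under 0.05. LTI30 has the largest fall in both panels, at -2.29 and -2.15, AT4G39130 the largest rise in the MCE, at 2.19, and LEA26 in the RAD, at 1.47.

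LTI30 (probe set AT3G50970_at), a dehydrin named for low-temperature induction, lost most transcript in both compartments. It was at 12.52, 12.67 and 12.59 in dry seeds, and in the MCE at 12.26, 12.15 and 11.95 at 3 HAS, 10.41, 10.91 and 10.98 at 7 HAS, 10.63, 10.64 and 10.61 at 12 HAS, and 9.91, 9.35 and 10.25 at 24 HAS. In the RAD it was at 11.81, 11.33 and 11.45 at 3 HAS, 10.33, 9.63 and 9.52 at 7 HAS, 9.74, 9.42 and 9.34 at 12 HAS, and 9.77, 9.25 and 9.11 at 24 HAS. In each compartment every 24 HAS array lay below every 3 HAS array. The fall from 3 to 24 HAS was -2.29 in the MCE (adjusted p = 3.9e-09) and -2.15 in the RAD (adjusted p = 7.96e-09), each ± 0.22 (SE). The compartments' changes differed by -0.13 ± 0.30 (SE, adjusted p = 0.859).

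AT4G39130, also a dehydrin, rose in the MCE, against the main direction of its family. It was at 9.18, 9.28 and 8.98 in dry seeds, and in the MCE at 7.38, 7.62 and 7.57 at 3 HAS, 8.11, 8.42 and 8.65 at 7 HAS, 9.64, 9.86 and 9.68 at 12 HAS, and 9.92, 9.53 and 9.67 at 24 HAS. RAD arrays were at 8.74, 8.70 and 8.73 at 3 HAS, 9.30, 8.93 and 9.02 at 7 HAS, 9.28, 9.01 and 9.09 at 12 HAS, and 9.34, 9.17 and 9.30 at 24 HAS. The MCE was below the RAD on every array at 3 and 7 HAS and above it on every array at 12 and 24 HAS. The change from 3 to 24 HAS was 2.19 ± 0.13 in the MCE (SE, adjusted p = 2.19e-12) and 0.54 ± 0.13 in the RAD (SE, adjusted p = 0.00184). The MCE minus RAD difference was -1.20, -0.69, 0.60 and 0.44 at 3, 7, 12 and 24 HAS, the only LEA gene called in both directions. The 24 HAS call was lost without MCE 24 HAS replicate 1 (adjusted p = 0.0775).

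DI21 rose in both compartments, by 1.02 ± 0.12 in the MCE (SE, adjusted p = 9.34e-08) and by 0.84 ± 0.12 in the RAD (SE, adjusted p = 1.46e-06). At 24 HAS it was at 10.53, 10.35 and 10.77 in the MCE and at 11.69, 11.80 and 11.94 in the RAD, above the 3 HAS arrays of the same compartment. At 7 and 12 HAS it was at 9.62, 9.87 and 9.97 and at 10.17, 10.21 and 10.31 in the MCE, and at 10.99, 10.97 and 11.10 and at 11.14, 11.20 and 11.39 in the RAD. COR47, a cold-induced dehydrin, was called higher in the MCE at 24 HAS (0.76, adjusted p = 0.0376), with 5.41, 4.06 and 4.19 at 24 HAS and 3.74, 3.78 and 3.86 at 3 HAS. Its other 21 arrays lay between 3.34 and 4.65. Only 1 array was above 5, and the call was lost without MCE 24 HAS replicate 1 or without any 1 of the 3 MCE arrays at 3 HAS (adjusted p 0.0627 to 0.373).

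The LEA_1 gene LEA4-1 fell in both compartments, by 1.04 ± 0.16 in the MCE (SE, adjusted p = 9.15e-06) and by 1.12 in the RAD. It was at 12.42, 12.25 and 12.38 in dry seeds, at 11.37, 11.20 and 11.57 at 3 HAS, 10.16, 10.67 and 10.98 at 7 HAS, 10.67, 10.71 and 10.92 at 12 HAS, and 10.32, 10.08 and 10.62 at 24 HAS in the MCE, and at 11.73, 11.29 and 11.46 at 3 HAS, 10.59, 10.60 and 10.58 at 7 HAS, 10.59, 10.36 and 10.56 at 12 HAS, and 10.44, 10.37 and 10.32 at 24 HAS in the RAD. AT2G21490 fell by 0.70 in the MCE and by 0.74 in the RAD. The lower level of both genes at 24 HAS held on all arrays of both compartments. M10, the AtM neighbour of M17, fell in both compartments as well, by 0.65 in the MCE (adjusted p = 0.000468) and by 1.16 ± 0.14 in the RAD (SE, adjusted p = 1.5e-07).

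M10 was at 13.47, 13.39 and 13.38 in dry seeds, and in the RAD at 13.25, 13.13 and 13.15 at 3 HAS, 13.21, 13.03 and 12.97 at 7 HAS, 13.12, 12.84 and 12.87 at 12 HAS, and 12.28, 12.00 and 11.78 at 24 HAS. The RAD arrays at 24 HAS lay apart from all earlier ones, and the MCE arrays lay between 12.298 and 13.13. M17 fell by 1.12 ± 0.18 in the RAD (SE, adjusted p = 1.28e-05), and its change in the MCE, 0.08, did not pass the test (adjusted p = 0.782). The other RAD falls of more than 1 log2 unit were those of AT5G44310, at -1.19, and AT4G21020, at -1.10, a LEA_4 gene that was at 12.67, 11.96 and 11.90 at 3 HAS and 11.07, 10.86 and 11.30 at 24 HAS.

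LEA26, a LEA_2 gene, was expressed only in the RAD at 24 HAS, where it was at 5.81, 6.24 and 6.26. It was at 4.67, 4.83 and 4.40 in the RAD at 3 HAS and at 4.53, 4.53 and 4.34 in the MCE at 24 HAS. All 24 other arrays of the series, between 3.89 and 5.07, lay below the 3 RAD arrays at 24 HAS. The rise in the RAD was 1.47 ± 0.21 (SE, adjusted p = 2.14e-06), and nearly all of it fell between 12 and 24 HAS (1.43, adjusted p = 6.63e-05). LEA27 rose in the RAD by 1.01 ± 0.12 (SE, adjusted p = 2.15e-07).

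AtLEA3, a LEA_3 gene, was expressed in the RAD at 7 and 12 HAS. There it was at 3.48, 3.53 and 3.84 at 3 HAS, 4.34, 5.44 and 5.39 at 7 HAS, 5.67, 5.58 and 5.79 at 12 HAS, and 3.91, 4.32 and 4.49 at 24 HAS. In the MCE its 12 arrays lay between 3.19 and 4.42. The gene rose by 1.44 at 7 against 3 HAS in the RAD (adjusted p = 1.91e-05) and fell by 1.44 at 24 against 12 HAS (adjusted p = 0.000158), so that its RAD level peaked in the middle of the series. At 12 HAS the MCE was 2.02 below the RAD (adjusted p = 4.77e-08). Its net change from 3 to 24 HAS, 0.62, was lost without RAD 24 HAS replicate 2 or 3, or RAD 3 HAS replicate 1 or 2 (adjusted p 0.0858 to 0.139).

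**Figure D5:**
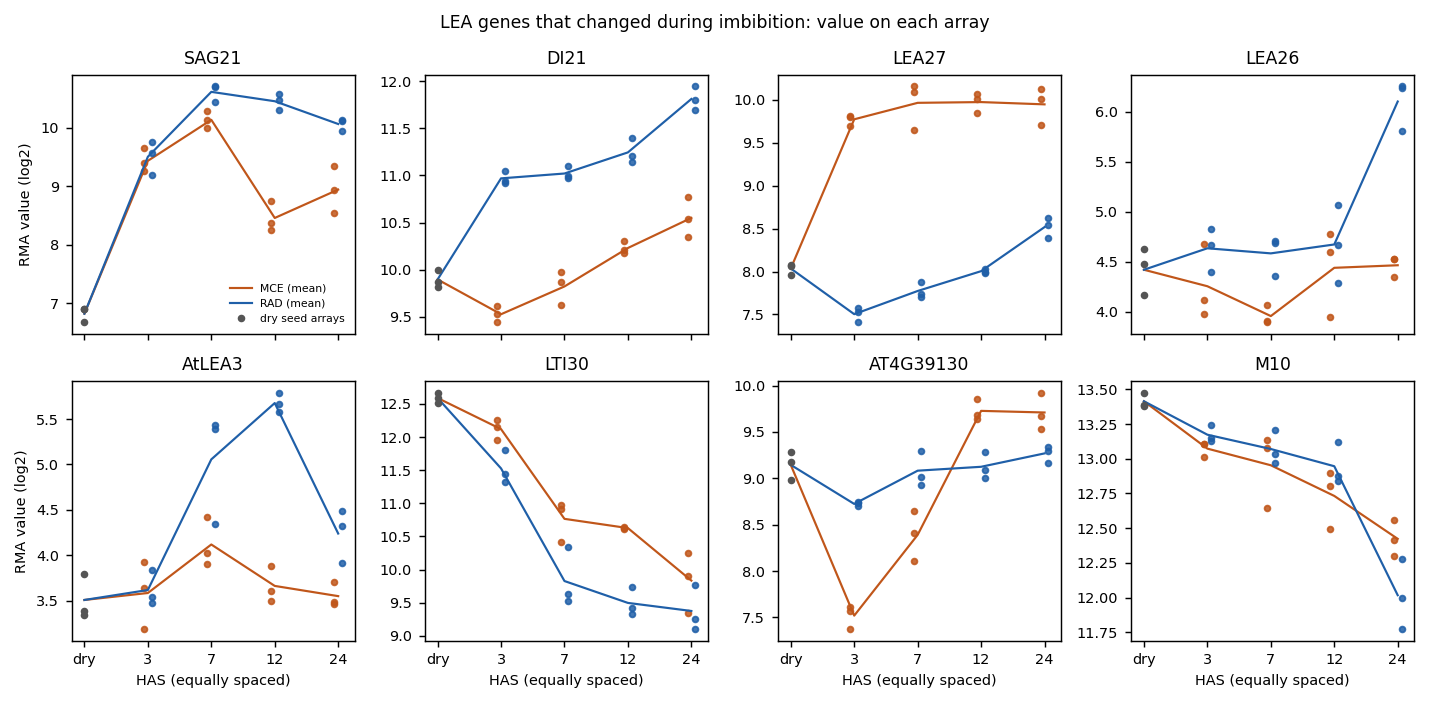
Log2 value of each array over time for SAG21, DI21, LEA27, LEA26, AtLEA3, LTI30, AT4G39130 and M10, with dry seeds (grey), the MCE (orange) and the RAD (blue) and lines through the means of 3. SAG21 is between 6.68 and 6.90 in dry seeds and between 8.25 and 10.70 in imbibed samples, AtLEA3 peaks in the RAD at 12 HAS, and AT4G39130 in the MCE passes the RAD between 7 and 12 HAS.

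Between consecutive times, most LEA changes fell in the first interval, where calls over all genes were also most frequent. Over the intervals in order, 26.9%, 12% and 4.27% of all genes were called in the MCE, and 28.6%, 5.09% and 9.98% in the RAD. At 7 against 3 HAS, 2 genes rose and 13 fell in the MCE (backgrounds 15.2% and 11.7%), and 3 rose and 16 fell in the RAD (backgrounds 14.9% and 13.7%). The methods' t-test with Benjamini-Hochberg adjustment called 2 of these MCE genes and 7 of these RAD genes. Centring each array on its median gave 2 rises and 24 falls in the MCE, where the share of all genes called went from 26.9% to 38.7%. The MCE count depended on MCE 7 HAS replicate 1, without which 6 rose and 7 fell and 9 of the original 15 genes were still called. In the MCE at 12 against 7 HAS, 6 rose and 1 fell (backgrounds 6.42% and 5.62%). Without the same array 2 rose and 1 fell. Shares of all genes were not counted for the t-test or for the fits without that array. With the replicate number as a block within the MCE groups at 7 and 12 HAS, 9 rose and 1 fell, where 7.35% and 6.5% of all genes did. The added genes were EM6 (0.56, adjusted p = 0.0244 with the block), ECP31 (0.46, adjusted p = 0.0115) and AT3G02480 (0.61, adjusted p = 0.0158). At 24 against 12 HAS in the MCE, 1 gene fell, LTI30 (-0.79, adjusted p = 0.0319), and none rose under limma (backgrounds 1.42% and 2.86%), 3 genes in each direction having an unadjusted p under 0.05. The LTI30 call was lost without any 1 of the 3 MCE arrays at 12 HAS or without MCE 24 HAS replicate 2 (adjusted p 0.0799 to 0.276).

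In the RAD at 12 against 7 HAS, 1 gene fell, AT2G21490 (-0.50, adjusted p = 0.0039), and none rose under limma (backgrounds 2.74% and 2.36%), with 6 and 1 at an unadjusted p under 0.05. At 24 against 12 HAS, 6 genes rose and 3 fell (backgrounds 6.68% and 3.3%). The genes that rose were LEA26, AT2G18340, HIRD11, AT3G17520, DI21 and LEA27, by 0.51 to 1.43, and those that fell AtLEA3, M10 and M17, by 0.63 to 1.44. The calls of HIRD11 and M17 in this interval were each lost with 3 of the 27 arrays left out in turn: HIRD11 without RAD 12 HAS replicate 1 or 3 or RAD 24 HAS replicate 3 (adjusted p 0.0566 to 0.201), and M17 without RAD 12 HAS replicate 1 or RAD 24 HAS replicate 1 or 2 (adjusted p 0.0769 to 0.178). Consecutive intervals share the arrays of the time between them.

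The SMP genes ECP31, named for a carrot embryogenic cell protein, and AT3G22490 lie next to each other in the gene order. ECP31 was at 12.55, 12.57 and 12.34 at 3 HAS, 10.60, 11.54 and 11.51 at 7 HAS, 11.42, 11.93 and 11.68 at 12 HAS, and 11.89, 12.03 and 12.01 at 24 HAS in the MCE. AT3G22490 was at 10.51, 10.56 and 10.29 at 3 HAS, 8.92, 10.02 and 10.29 at 7 HAS, 10.41, 11.05 and 11.03 at 12 HAS, and 10.82, 10.86 and 11.14 at 24 HAS in the MCE. In both genes MCE 7 HAS replicate 1 was the lowest array. ECP31 fell by 1.27 in the MCE and by 1.05 in the RAD at 7 against 3 HAS. Against dry seeds at 3 HAS, AT3G22490 was lower in the MCE by 1.33 ± 0.22 (SE), and the difference of ECP31 was -0.13 (adjusted p = 0.655).

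Among the other neighbouring pairs of LEA genes, LTI30 and XERO1 are both dehydrins with no gene between them, and M17 and M10 are both AtM genes. LTI30 was higher in the MCE at 3, 7 and 12 HAS, by 0.59, 0.94 and 1.13, whereas XERO1 was lower by 0.86, 0.94 and 0.47. The LTI30 call at 3 HAS was lost without MCE 3 HAS replicate 1 or 2, or RAD 3 HAS replicate 2 or 3 (adjusted p 0.0842 to 0.14). M17 was higher in the MCE at all 4 times, and M10 only at 24 HAS, by 0.41 (adjusted p = 0.0203), which was lost without MCE 24 HAS replicate 3, or RAD 24 HAS replicate 2 or 3 (adjusted p 0.0543 to 0.149).

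COR15A, COR15B and ERD10 were low on every array. COR15A and COR15B, LEA_4 proteins of the chloroplast that protect membranes on freezing, were between 2.95 and 3.73 and between 3.60 and 4.41 on all 27 arrays. ERD10, a dehydrin next to COR47, was between 3.37 and 4.41. The 12 LEA genes expressed in no group covered 2.31 to 5.41. For COR15A, COR15B and ERD10, no difference between 24 and 3 HAS passed the test in either compartment. The chip was designed on the Columbia accession and the samples are Cvi, and an effect of sequence differences on these values was not tested.

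The transcription factors that are known to act on LEA genes were examined as 2 lists. Of the seed maturation and ABA factors, 20 of 21 were measured, and at 24 HAS 9 were higher and 4 lower in the MCE relative to the RAD, which is 45% and 20% beside 18.9% and 20.5% of all genes. From 3 to 24 HAS 2 rose and 7 fell in the MCE (10% and 35%, beside 18.8% and 16.8%), and 2 rose and 3 fell in the RAD (10% and 15%, beside 20.3% and 17.9%). ABI5, a bZIP factor that binds ABA-responsive elements of the Em genes, averaged 10.18 in the MCE and 8.83 in the RAD at 24 HAS, a difference of 1.34 (adjusted p = 6.37e-07), opposite in sign to that of EM1 and EM6. ABI3, the B3 factor of seed maturation, averaged 8.94 and 7.31 (1.62, adjusted p = 1.54e-09). EEL, a bZIP factor known to act against ABI5 on EM1, averaged 7.57 in the MCE and 9.20 in the RAD (-1.63, adjusted p = 5.02e-10). ABI4, an AP2 factor, averaged 4.77 in the MCE and 7.42 in the RAD (-2.66, adjusted p = 2.69e-12).

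Of the DREB and CBF factors of cold and drought, 6 of 7 were measured, and at 24 HAS 2 were higher and 2 lower in the MCE relative to the RAD. That is 33.3% in each direction, beside 18.9% and 20.5% of all genes. DREB2A, a drought-induced factor, averaged 11.02 in the MCE and 8.68 in the RAD at 24 HAS (2.34, adjusted p = 8.05e-14). From 3 to 24 HAS it fell by 1.24 in the MCE and by 2.02 in the RAD. No link between these factors and the LEA genes was tested.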

How the data were processed

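The members and the gene lists were chosen with earlier results of these data known. Per the labels and methods, RNA of 27 samples was hybridized to ATH1 chips. The deposited log2 values come from RMA (background correction, then quantile normalization, then median polish), which the authors ran on these and further chips together with a custom chip definition that gives 1 value per gene, dropping control probes. The deposited values were used as they are, and arrays carry no depth, so that the number of arrays and the low end of the scale limit precision. RMA narrows differences between low values, and a shared normalization assumes that most genes keep their level.

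The fit was limma 3.58.1 (lmFit, contrasts.fit and eBayes) in R 4.3.3 on 21313 genes and all 27 arrays in 9 groups, with 18 residual and 7.246 prior degrees of freedom, and a Benjamini-Hochberg adjusted p under 0.05 within each comparison. Summaries used Python 3.11.15 with pandas 2.3.3, numpy 2.4.6 and matplotlib 3.10.9. On simulated data in which 200 genes differed by 1 log2 unit between 24 and 3 HAS in the MCE, 175 (87.5%) were recovered and 12 of the other genes were called. The 200 genes were drawn from those with a mean above 5, all other genes were kept flat, and noise was independent between arrays. The recovered share is therefore no estimate for low genes or for data in which many genes change.

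Values on every array, or ranges for low genes and for groups outside the comparison that named a gene, are given for the 3 largest increases and the 3 largest decreases that passed the test without overlap of arrays, from 3 to 24 HAS and from dry seeds to 3 HAS in each compartment and between the compartments at 24 HAS, and for EM1, EM6, RAB18, COR15A, COR15B, COR47, ERD10, ERD14, LTI30 and XERO1 (low genes as ranges). Other genes were named after their values were seen. Families follow the published classification. A RefSeq table (TAIR10.1) held all 51 genes and gave names (symbols or synonyms, where it had any) and gene order. No sequence was used.

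The labels number replicates 1 to 3 without saying what a number shares. Deviations of same-numbered arrays correlated over 0.1 for every number in 2 of 36 pairs of groups, the MCE at 7 and 12 HAS (lowest 0.21) and at 12 and 24 HAS (lowest 0.211). For these comparisons a fit with the number as a term for the compared groups only was added after the data were seen. The 12 alternative settings were other tests, variance models, floors, filters, scalings, fold levels, the groups compared alone and the replicate block, besides 27 fits that each left out 1 array.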

Additional observations from a re-analysis of the deposited data

Results flagged for a closer look

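For 8 LEA genes the change from 3 to 24 HAS differed between the compartments by limma's interaction term (MCE change minus RAD change, log2, adjusted p under 0.05, n = 3 arrays a group). That is 16.7% of the 48 measured LEA genes, beside 11.7% of all genes. AT4G39130 had the largest difference, 1.64 (adjusted p = 1.16e-06), having risen more in the MCE than in the RAD. M17 differed by 1.21 (adjusted p = 0.00207), with a fall in the RAD and a change in the MCE that did not pass the test. AT3G22490 also differed by 1.21 (adjusted p = 0.00889), with 0.49 in the MCE (adjusted p = 0.0832) and -0.72 in the RAD (adjusted p = 0.00864). AT5G44310 differed by 0.87 (adjusted p = 0.0118). LEA26 differed by -1.26 (adjusted p = 0.00496) and LEA27 by -0.84 (adjusted p = 0.00181), both having risen in the RAD. SAG21 differed by -1.05 (adjusted p = 0.00428), with -0.49 in the MCE and 0.56 in the RAD. These calls of SAG21 within a compartment were lost in the MCE without MCE 24 HAS replicate 1 or 2 or MCE 3 HAS replicate 3 (adjusted p 0.0599 to 0.221), and in the RAD without RAD 3 HAS replicate 1 (adjusted p = 0.0892). HIRD11 differed by -0.92 (adjusted p = 0.018), which was lost without MCE 24 HAS replicate 2, MCE 3 HAS replicate 2 or RAD 24 HAS replicate 3 (adjusted p 0.0645 to 0.0683).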

How the results depend on the processing

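Array quality weights were lowest for MCE 7 HAS replicate 1 (0.4219), and replicates and probes limit what can be called. A fold level of at least 3 left 2, 0, 1, 0, 5 and 8 LEA genes in the MCE (24 against 3, 7 against 3, 12 against 7, 24 against 12 HAS, 3 HAS against dry and 24 HAS against dry), 1, 3, 0, 0, 2 and 10 in the RAD in the same order, 3, 6, 11 and 5 between the compartments at 3, 7, 12 and 24 HAS, and 1 for the difference in change. Of all genes, that level left 3.29%, 1.22%, 0.263%, 0.249%, 3.39% and 7.45% in the MCE in this order. In the RAD it left 3.95%, 1.28%, 0.127%, 0.145%, 2.36% and 9.93%. Between the compartments it left 3.07%, 4.83%, 5.08% and 4.99%, and 1.39% for the difference in change. A fold level of at least 2 left 4, 3, 3, 0, 9 and 10 for the MCE, 8, 9, 0, 3, 8 and 13 for the RAD, 10, 12 and 13 between the compartments at 3, 7 and 24 HAS, and 5 for the difference in change. Shares of all genes at that lower level were not counted. Median centring gave 28 (24 against 3 HAS) and 26 (7 against 3 HAS) in the MCE, with 52.9% and 38.7% of all genes called. The methods' t-test after Benjamini-Hochberg adjustment called 2, 0 and 0 in the MCE (7 against 3, 12 against 7 and 24 against 12 HAS), 7, 0 and 0 in the RAD, and 15 between the compartments at 7 HAS; unadjusted it called 5 (RAD, 12 against 7 HAS) and 14 (difference in change). It also lost AT2G18340 (adjusted p = 0.0692) and AT4G36600 (adjusted p = 0.0769) in the RAD at 3 HAS against dry seeds. Array weights gave 11 (MCE, 12 against 7 HAS), 5 (MCE, 24 against 12 HAS) and 2 (RAD, 12 against 7 HAS). The compared groups alone gave 3 and 0 in the MCE (12 against 7 and 24 against 12 HAS), a floor of 4 gave 0 (MCE, 24 against 12 HAS), and repeated quantile normalization gave 2 (RAD, 12 against 7 HAS). With the repeated normalization, 5.06% of all genes were called in that RAD interval. Shares of all genes were not counted for the t-test, the array weights, the compared groups alone, the floor or the replicate block over all 9 groups. The replicate block moved no count by over 1.5 times. Single genes were followed under it only in the comparison that named them by rule, and the listed genes such as EM1 from 3 to 24 HAS. Among these it ended 1 call, RAB18 in the RAD (adjusted p = 0.0544). Other calls named here were not looked up under the block. A block within the compared groups, added after seeing the data, gave 10 MCE genes at 12 against 7 HAS (7 of them called without it) and 1 at 24 against 12 HAS. Of all genes, it called 7.35% higher and 6.5% lower in the first of these comparisons, and 3.21% and 1.68% in the second.

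Leaving out each array in turn gave 11 to 18, 13 to 17, 3 to 11, 0 to 2, 15 to 19 and 24 to 29 MCE genes in the order above, 17 to 26, 16 to 19, 1 to 2, 7 to 12, 17 to 21 and 28 to 32 RAD genes, 17 to 23, 25 to 30, 24 to 28 and 21 to 25 between the compartments, and 7 to 9 for the difference in change. Shares of all genes were not counted in these fits. The MCE count at 12 against 7 HAS was 11 without MCE 12 HAS replicate 1 or MCE 7 HAS replicate 3, 4 without MCE 12 HAS replicate 3 and 3 without MCE 7 HAS replicate 1, that at 24 against 12 HAS was 0 without MCE 12 HAS replicate 1 or 2 or MCE 24 HAS replicate 2 and 2 without MCE 24 HAS replicate 1, and the RAD count at 12 against 7 HAS was 2 without MCE 7 HAS replicate 1. Some small differences between 24 and 3 HAS, none of them called, changed sign. COR15A in the MCE was -0.088 with array weights, -0.2053 after centring and -0.0818 to 0.093 with 1 array left out, and in the RAD -0.0378 after centring and -0.0386 to 0.2572. ERD10 in the RAD was -0.0081 with the floor, -0.114 after centring and -0.0592 to 0.1682 with 1 array left out. EM1 was 0.1037 in the RAD after repeated quantile normalization and -0.0876 to 0.0419 in the MCE with 1 array left out, and ERD14 was -0.0177 to 0.3343 in the RAD. The cause of these shifts was not tested. The planned count of promoter motifs was not run.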

Other observations

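The genes with group means most like those of the Em genes were found over the 9 group means of all genes in the table, as a description, since the groups share a normalization and replicate arrays. For EM1 the closest were AT2G21195, AT5G53310 and AT5G09310, with Pearson correlations of 0.9899, 0.9881 and 0.9874. For EM6 they were AT1G01170, GIF2 and AT4G19420, with 0.9854, 0.9831 and 0.9805. EM1 and EM6 correlated with each other at 0.9519, which placed EM6 at rank 100 for EM1 and EM1 at rank 86 for EM6.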
